A study of Mus musculus with 384 samples.

Results

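*Pitpnm2* and *Abhd5* are 2 of the 69 targeted assays measured in this study, chosen by gene symbol as its lipid-handling genes. *Pitpnm2* was chosen with its values under the labels Pit, dDG and vDG already known, so its levels there, against the other region labels and across the *Anxa2* ranges described further on, are given as a description with no test. The study asked whether social support and stress in early and adult life change the expression and co-expression of glucocorticoid-responsive risk genes for depression and schizophrenia across the mouse brain. Frozen tissue punches of male Balb/c mice were profiled by targeted RNA sequencing, in which a 50-base stretch of each chosen transcript is amplified and its reads are counted. The labels give 12 region names, which the study's text spells out as cerebellum (CER), amygdala (AMY), prefrontal cortex (PFC), paraventricular nucleus (PVN), bed nucleus of the stria terminalis (BNST) and dorsal or ventral CA1, CA3 and dentate gyrus (dCA1, vCA1, dCA3, vCA3, dDG and vDG), with Pit as the last. They also give 4 label groups of 8 mice each, Co naive, Co inject, MS naive and MS inject. Each of the 32 mice gave up to 12 samples, and 380 of the 384 labelled samples have values; in PVN the MS inject and the MS naive group, in BNST the Co inject group and in vDG the Co naive group have 7 samples.

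The study's methods name its conditions by early handling or limited nesting material followed by housing with a female or by social defeat, and they describe no injection. Neither the labels nor the methods pair these conditions with the label groups, so MS, Co, inject and naive are used here only as labels. The labels give every animal an age of postnatal day 9, whereas the methods describe tissue of adult mice, and the labels have Pit where the study's text has Nac. The methods place 3 brain regions on each library plate without saying which, so region and plate cannot be told apart. None of the 32 marker genes sought for pituitary, hippocampal fields, cerebellum, PVN and the main brain cell types (0 of 32) is among the assays, and the region labels could therefore not be checked against defining markers. In bulk tissue, fewer cells that use a gene and less RNA per cell cannot be told apart.

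*Pitpnm2* encodes a membrane-associated phosphatidylinositol transfer protein. Proteins of this family move phosphatidylinositol between the endoplasmic reticulum and the plasma membrane, where it replaces the lipid that is used up when receptors activate phospholipase C. *Abhd5* encodes a lipid droplet protein that switches on adipose triglyceride lipase, the enzyme that takes the first step in breaking down stored fat, and its loss in people leads to neutral lipid storage disease. The genes thus belong to different branches of lipid handling, membrane signalling lipids in the first case and stored neutral lipid in the second.

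Each assay reads across a single exon junction, so the values speak for the transcripts that hold this junction and not for the whole gene. The sequences of the junctions are shown because they define what was counted. They were read from the GENCODE M21 transcripts of the mouse build GRCm38, with 25 bases on each side and the downstream exon in capitals; the exon numbers in the assay names were taken to count from 0, and neighbouring exons within the transcript resulted for 66 of the 69 assays.
*Pitpnm2*: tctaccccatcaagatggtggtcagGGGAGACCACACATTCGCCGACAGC
*Abhd5*: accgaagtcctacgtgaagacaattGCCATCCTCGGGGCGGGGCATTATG
The *Pitpnm2* gene (ENSMUSG00000029406.15) lies on the minus strand at chr5:124118690-124249760. Its assay joins exons 21 and 22 of the 25 exons of transcript NM_011256, at chr5:124122889-124122913 and chr5:124122695-124122719, both coding and separated by an intron of 169 bases. This junction is present in 5 of the 10 annotated *Pitpnm2* transcripts. The *Abhd5* gene (ENSMUSG00000032540.16) lies on the plus strand at chr9:122351608-122381524. Its assay joins exons 6 and 7 of the 7 exons of NM_026179, at chr9:122378984-122379008 and chr9:122379513-122379537, also coding, across an intron of 504 bases. This junction is present in 3 of 8 annotated *Abhd5* transcripts.

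Libraries held between 12898 and 261007 reads on the 69 assays, with a median of 139846, and 2 libraries were under 30000, namely vCA1 of MS inject mouse 99 (12898 reads) and PFC of Co inject mouse 267 (24672 reads). *Pitpnm2* received 248397 reads in all and was read in every library. *Abhd5* received 46509 reads and had none in 5 libraries, which were AMY of Co inject mouse 267, PFC of Co naive mouse 241, dCA1 of MS naive mouse 105, vCA1 of Co naive mouse 253 and vCA1 of MS inject mouse 99. A count of 0 allows up to 3 reads, which correspond to values of 7.34, 11.8, 4.80, 4.18 and 27.8 in these libraries, in that order. At the median read number of a region, counting error alone would give *Abhd5* a coefficient of variation between 8.14% in Pit and 11.9% in vCA1, against observed values between 25.8% in CER and 69.8% in PFC. Reads of amplified libraries are not independent molecules, and these limits cover counting error only.

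Samples that share the label Pit, dDG or vDG did not form single groups. *Anxa2*, which encodes a calcium-dependent phospholipid-binding protein, was either under 1000 (70.2 to 298 in 64 samples) or over 1000 (1901 to 21258 in 31 samples), and no sample lay between. The samples over 1000 were 16 of 32 in Pit, 8 of 32 in dDG and 7 of 31 in vDG. In the 285 samples of the other 9 region labels, *Anxa2* was at most 817. Likewise *Ociad2* was under 1200 in 32 and over 1200 in 64 of the samples labelled CER, dCA3 or vCA3. Label terms were also fitted with each division as a covariate. Region labels were also compared without the samples over the *Anxa2* limit, but not by *Ociad2* range. What lies behind the divisions was not tested.

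*Pitpnm2* had its highest levels in the samples labelled dDG, vDG and Pit. All values are normalised read counts, that is reads divided by a size factor of the library. The median over all 380 samples was 340 (range 9.27 to 2496). By region label, the medians rose from 237 in vCA1 (9.27 to 477) through 267 in BNST (57.0 to 608), 280 in vCA3 (124 to 427), 290 in CER (145 to 668), 323 in PFC (112 to 894), 327 in dCA3 (173 to 690), 338 in dCA1 (117 to 790), 380 in AMY (145 to 1086) and 392 in PVN (66.4 to 816). They reached 815 in Pit (154 to 2472), 1388 in vDG (156 to 2370) and 1711 in dDG (186 to 2496). The first 9 labels thus had medians between 237 and 392, whereas the last 3 each held low and high samples apart. In Pit no sample lay between 362 and 1267, so none was near the Pit median. Outside Pit, dDG and vDG, a value over 1000 occurred in 2 of 285 samples, both labelled AMY.

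**Figure D1:**
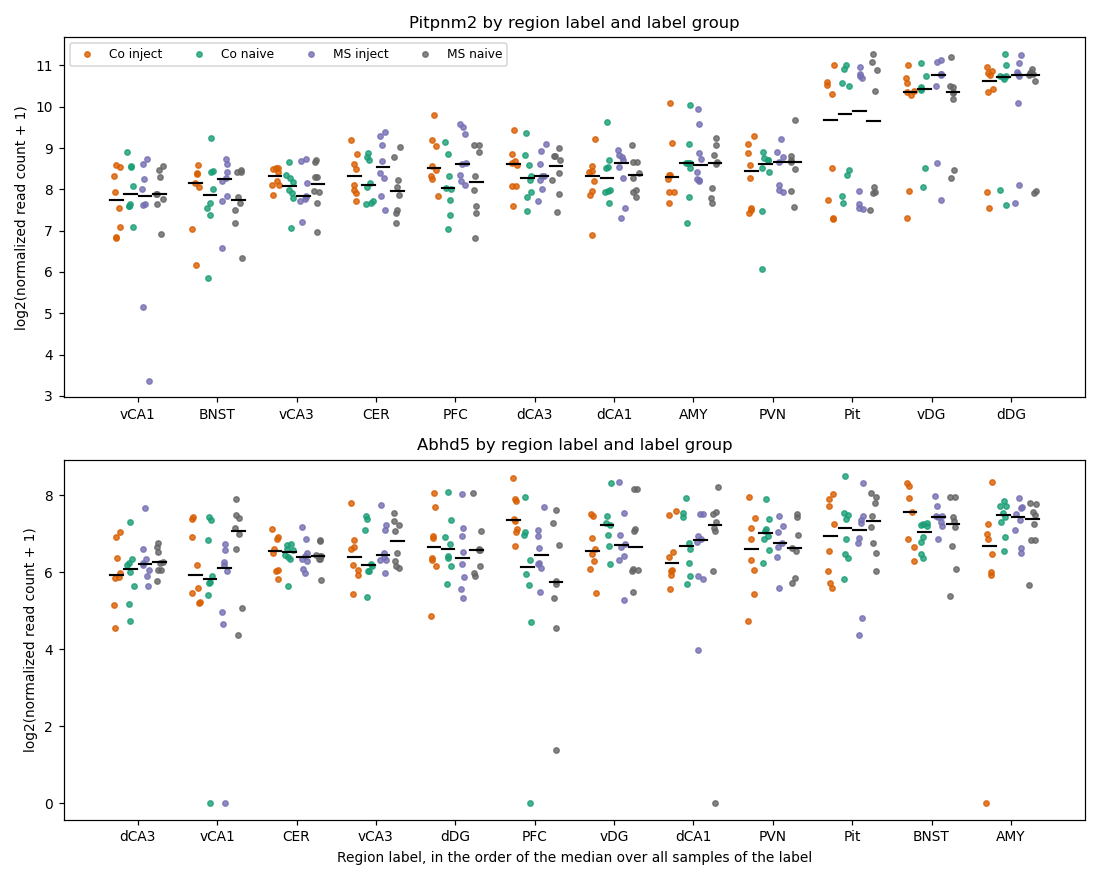
Normalised read counts of *Pitpnm2* (top) and *Abhd5* (bottom) on the scale log2(value + 1), by region label, with a point for each sample coloured by label group and a bar at the median of each label group. *Pitpnm2* falls into separate clouds in Pit, vDG and dDG, and 5 samples of *Abhd5* lie at 0.

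The region labels stood in another order for *Abhd5*. The median over all samples was 100 (0 to 360). Medians were 71.3 in dCA3 (22.6 to 201), 71.3 in vCA1 (0 to 239), 85.4 in CER (48.9 to 144), 86.4 in vCA3 (39.7 to 222), 92.1 in dDG (27.9 to 268), 102 in PFC (0 to 349), 106 in vDG (38.0 to 321), 109 in dCA1 (0 to 297), 114 in PVN (25.5 to 248), 147 in Pit (19.5 to 360), 150 in BNST (40.5 to 317) and 154 in AMY (0 to 320). BNST, which was second lowest for *Pitpnm2*, was second highest for *Abhd5*, and dDG, highest for *Pitpnm2*, was in the lower part of the order. The ranges of all 12 labels overlapped.

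Region labels were compared with limma, a linear model with a spread estimate shared across assays, on log2(value + 1), with Benjamini-Hochberg adjustment over all assays and pairs and a threshold of 0.1. For *Pitpnm2*, the 36 pairs among the 9 labels other than Pit, dDG and vDG were counted, and 12 of 36 passed, against a background of 38.2% over all assays in the same pairs. The share of *Pitpnm2* is near this background. All but 1 of the called pairs had vCA1 or BNST on the lower side: vCA1 was lower than 6 labels, BNST lower than 5, and vCA3 was lower than AMY. With rescaled totals, where each library's values were scaled to the same sum, 14 pairs passed against a background of 43.7%, and 11 of these were among the 12. The greatest difference among the counted pairs was then BNST minus dCA3, at -0.89 (limma adjusted p = 0.000667). BNST and vCA1 were then each lower than 7 labels, and the call between AMY and vCA3 was lost (0.34, limma adjusted p = 0.229). That call was also lost without the 5 libraries that had no *Abhd5* read, where vCA3 was lower than 0 labels. With all samples and no rescaling, AMY and vCA1 differed most, by 0.87 with a standard error of 0.23 (limma adjusted p = 0.000616). Their mean log2 levels were 8.58 (SD 0.70, n = 32) and 7.70 (SD 1.10, n = 32). Dorsal CA1 exceeded ventral CA1 by 0.62 (standard error 0.23, limma adjusted p = 0.0182), while dCA3 and vCA3 differed by 0.32 (limma adjusted p = 0.266). None of the 8 pairs of neighbours in the order of the medians passed (0 of 8, lowest limma adjusted p = 0.383), so this order is not resolved step by step.

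The lowest *Pitpnm2* value of the study, 9.27, came from the vCA1 library with 12898 reads. This was the 1 library with at most 3 *Pitpnm2* reads. Without the 2 libraries under 30000 reads, the same 12 pairs passed, against a background of 40.3% over all assays. The mean log2 level of vCA1 was then 7.84, and dCA1 exceeded vCA1 by 0.48 (limma adjusted p = 0.0671). In CER, dCA3 and vCA3, the median of *Pitpnm2* was 243 (124 to 366, n = 32) where *Ociad2* was under 1200 and 374 (146 to 690, n = 64) where it was over 1200. The median of *Abhd5* was 79.3 (49.1 to 184) and 80.8 (22.6 to 222) in the same samples. These ranges overlapped, and the differences were not tested.

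For *Abhd5*, 21 of 66 pairs of region labels passed, a share below the background of 51.2% over all assays. BNST was higher than 7 labels, AMY and Pit were each higher than 3, vCA1 was lower than 9, dCA3 lower than 5 and PFC lower than 3. Without the 5 libraries that had no *Abhd5* read, 1 of them an AMY library, AMY and BNST were each higher than 8, Pit was higher than 4, dCA3 was lower than 8, vCA1 lower than 6 and PFC lower than 3. With rescaled totals, 20 pairs passed against a background of 54%, and 16 of these were among the 21. AMY, BNST, Pit and vDG were then each higher than 4 labels, vCA1 was lower than 8, and dCA1, dCA3 and PFC were each lower than 4. The difference was greatest between BNST (mean log2 level 7.18, SD 0.66, n = 31) and vCA1 (5.88, SD 1.80, n = 32), at 1.31 with a standard error of 0.28 (limma adjusted p = 2.51e-05). It was 0.91 (limma adjusted p = 9.64e-05) without the libraries that had no *Abhd5* read, 2 of which were vCA1 libraries. The greatest difference was then that of BNST over dCA3, at 1.05 (limma adjusted p = 4.69e-06). Among neighbours in the order of the medians, 1 of 11 pairs passed, namely CER over vCA1 by 0.57 (limma adjusted p = 0.0818), and this difference shrank to 0.18 (limma adjusted p = 0.522) without the libraries that had no read. Dorsal CA1 exceeded ventral CA1 by 0.62 (standard error 0.28, limma adjusted p = 0.0579), but by 0.43 (limma adjusted p = 0.189) without the 2 libraries under 30000 reads. Neither dCA3 against vCA3 (-0.46, limma adjusted p = 0.173) nor dDG against vDG (-0.21, limma adjusted p = 0.586) passed.

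The position of Pit in the order of *Abhd5* levels rested on the samples in which *Anxa2* was over 1000. With all samples, Pit (mean log2 level 6.94) was higher than dCA3, PFC and vCA1. Without the samples over 1000 in Pit, dDG and vDG, the mean log2 level of Pit was 6.20, Pit was higher than 0 labels, and AMY exceeded it by 0.74 (limma adjusted p = 0.0642) and BNST by 0.98 (limma adjusted p = 0.0122). The number of *Abhd5* pairs that passed was then 20, against a background of 46.4%, and 16 of the 20 were among the original 21.

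Within Pit, dDG and vDG, *Pitpnm2* and *Abhd5* lay on opposite sides of the *Anxa2* division. *Pitpnm2* had a median of 1714 (364 to 2496, n = 64) in the samples with *Anxa2* under 1000 and of 241 (154 to 394, n = 31) in those over 1000, a ratio of medians of 7.12. The ratio was 7.91 in Pit (1739 against 220), 7.31 in dDG (1765 against 241) and 5.47 in vDG (1450 against 265). In Pit and dDG the ranges did not overlap. In vDG a single sample crossed over, that of Co naive mouse 259, with a *Pitpnm2* value of 364 and an *Anxa2* value of 107, so that 63 of 64 samples under 1000 exceeded the highest sample over 1000. Just inside and outside the limit of 1000, the nearest *Anxa2* values were 298 and 1901. These *Pitpnm2* values had a part in the choice of the gene and are a description only.

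*Abhd5* showed the opposite direction and a smaller ratio. Its median was 82.8 (19.5 to 176, n = 64) with *Anxa2* under 1000 and 209 (117 to 360, n = 31) with *Anxa2* over 1000, which is 2.53 times the former. The ratio was 2.32 in Pit (196 against 84.7), 2.91 in dDG (232 against 79.5) and 3.09 in vDG (284 against 91.9). The ranges were apart in dDG and met in Pit and vDG: over the 3 labels, 51 of 64 samples under 1000 lay below the lowest sample over 1000. No test was made, because the division was set with results of these data known. Library reads overlapped between the ranges in Pit (medians 163204 under and 145061 over 1000) and vDG (141326 and 155563). In dDG every library over 1000 (175072 to 227241 reads, median 202572) held more reads than every library under 1000 (90772 to 164858, median 144176), and the part of depth in the values was not tested.

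**Figure D2:**
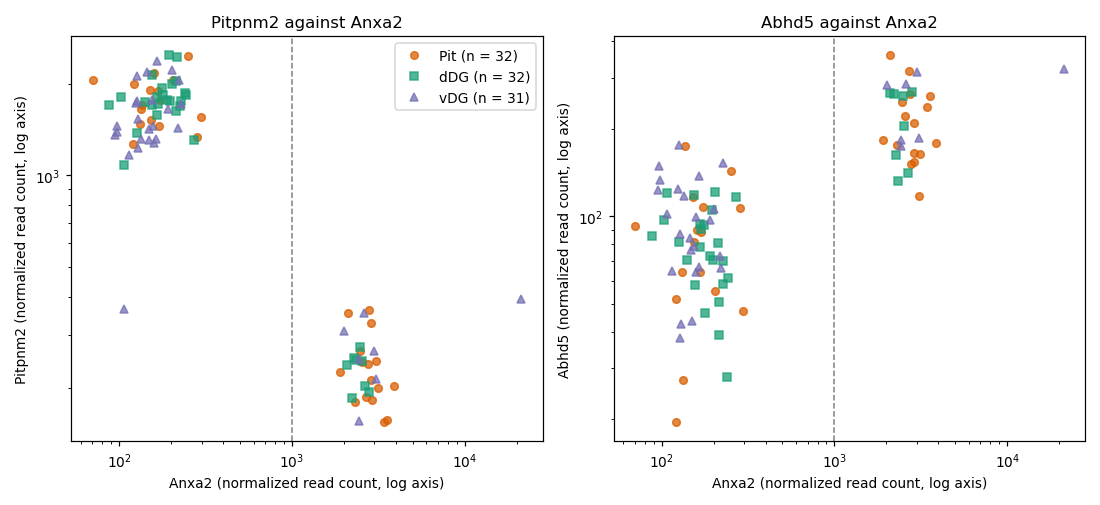
*Pitpnm2* (left) and *Abhd5* (right) against *Anxa2* in the 95 Pit, dDG and vDG samples, all as normalised read counts on log axes, with a dashed line at an *Anxa2* value of 1000. *Pitpnm2* is high on the left of the line and *Abhd5* on the right, and the vDG sample with a *Pitpnm2* value of 364 is the exception on the left.

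Compared with the rest of the brain, the *Pitpnm2* level stood apart in the samples with *Anxa2* under 1000. The highest value in the other 9 region labels was 1086, and 62 of the 64 samples under 1000 exceeded it, against 0 of the 31 samples over 1000. The median of the latter, 241, is close to the median of 237 in vCA1, the lowest of the region labels. For *Abhd5* it was the samples over 1000 that had the higher level, since their median of 209 lay above that of each region label, whereas the median of 82.8 in the others lay between vCA1 and CER.

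The same values can be read inside single mice, where each comparison is also one between region labels. The counts follow largely from the separation given above and are a description only. Of the 32 mice, 22 had libraries in both *Anxa2* ranges among their Pit, dDG and vDG samples, 9 had none over 1000 and 1 had all 3 over 1000. In 22 of these 22 mice every *Pitpnm2* value under 1000 exceeded every value over 1000, and in 21 of 22 every *Abhd5* value under 1000 lay below every value over 1000. The exception for *Abhd5* was MS inject mouse 85, with 106 and 121 in its libraries under 1000 and 117 in its library over 1000.

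**Figure D3:**
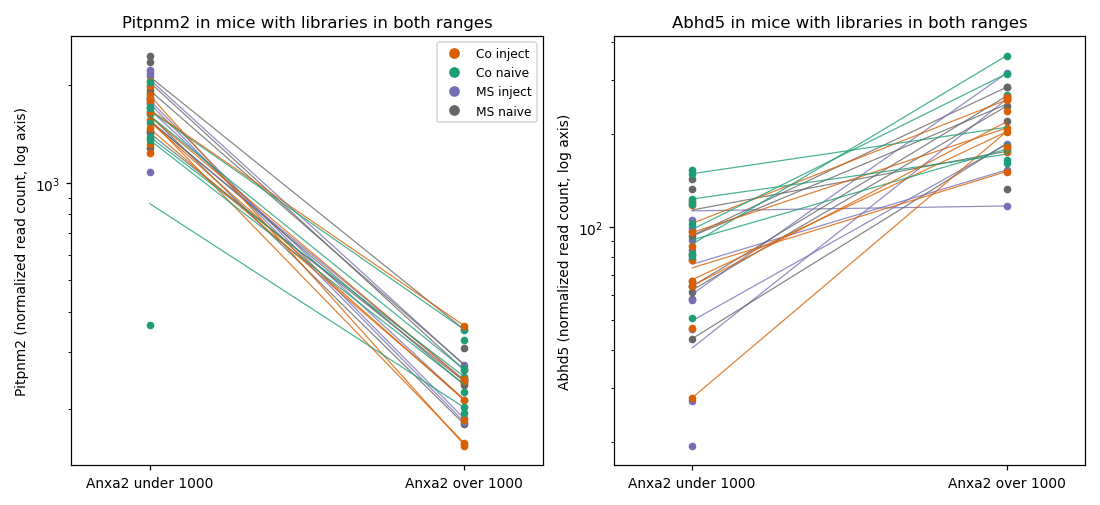
*Pitpnm2* (left) and *Abhd5* (right), as normalised read counts on log axes, in the 22 mice with libraries on both sides of an *Anxa2* value of 1000 in Pit, dDG and vDG, with a point for each library coloured by label group and lines joining the geometric means of a mouse. The lines fall for *Pitpnm2* and rise for *Abhd5*.

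The label groups held nearly equal numbers of samples over 1000, with 4 in each group in Pit, 2 in each in dDG, and 2 in each in vDG except Co naive with 1. Under 1000, with 16 samples in each group, the *Pitpnm2* median was 1767 for MS inject (range 1084 to 2444) and 1753 for MS naive (range 1166 to 2472). It was 1546 for Co inject (range 1236 to 2060) and 1696 for Co naive (range 364 to 2496). Over 1000, the medians in this order of groups were 208, 246, 199 and 252, with 8, 8, 8 and 7 samples. *Abhd5* medians, again in this order, were 81.4, 80.1, 77.5 and 95.0 under 1000 and 175, 255, 207 and 183 over 1000. In both ranges, the ranges of values of the 4 label groups overlapped for both genes.

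No label term passed for either gene. In each region, limma was fitted with terms for status (MS against Co), injection (inject against naive) and their interaction, with adjustment over the assays of the region. For status, 0 of 24 tests of the 2 genes passed, against a background of 0% of the 826 tests of all assays, and 0 of the 24 had an unadjusted p under 0.05, which held for 2.66% of all tests. For injection, 0 of 24 passed against a background of 0.121%, a single call that concerned the cell-cycle inhibitor *Cdkn1a* in vDG; 2 of 24 had an unadjusted p under 0.05, against 3.75% of all tests. For the interaction, 0 of 24 passed against a background of 0%, and 0 of the 24 had an unadjusted p under 0.05, against 2.3% of all tests. The lowest adjusted p of the 2 genes was 0.730 for status, 0.357 for injection and 0.748 for the interaction. The study lists *Abhd5*, printed as Adhd5, for adult defeat in vCA1 and the interaction in Nac. By its text, neither would remain after correction for the number of regions. The study's conditions are not paired with the label groups, so these calls were not tested here. In vCA1, *Abhd5* differed by 0.04 for status, -0.41 for injection and -2.07 for the interaction (limma adjusted p = 0.987, 0.993 and 0.927). With 5 principal components, the interaction had a limma adjusted p of 0.420.

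The 2 injection tests under an unadjusted p of 0.05 were both in PFC. For *Pitpnm2*, the inject groups had medians of 366 (Co, 227 to 894) and 394 (MS, 273 to 760), and the naive groups had 260 (Co, 131 to 570) and 287 (MS, 112 to 538). All 4 ranges overlapped. The difference inject minus naive was 0.63 on the log2 scale (standard error 0.24, 95% interval 0.13 to 1.13, limma adjusted p = 0.357). For *Abhd5*, the inject groups had medians of 163 (Co, 101 to 349) and 86.1 (MS, 43.7 to 204), and the naive groups had 69.5 (Co, 0 to 246) and 52.3 (MS, 1.59 to 194), again with overlapping ranges. The difference was 1.45 (standard error 0.56, 95% interval 0.30 to 2.60, limma adjusted p = 0.357), and 1.05 without the libraries that had no *Abhd5* read. Neither result passed the adjusted threshold.

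The intervals set how large a difference these data could have missed. For status, the 95% interval of *Pitpnm2* ran from -0.46 to 0.21 in vCA3 and from -1.10 to 1.14 in Pit, where both *Anxa2* ranges were pooled. That of *Abhd5* ran from -0.30 to 0.26 in CER and from -1.22 to 1.30 in vCA1, which held 2 libraries without a read. With the *Anxa2* range as a covariate in Pit, dDG and vDG, the status interval of *Pitpnm2* was narrower in Pit, from -0.22 to 0.26. It ran from -0.14 to 0.23 in dDG and from -0.04 to 0.69 in vDG. In this fit, 0 of 24 tests passed for each term. The lowest limma adjusted p of the 2 genes was 0.274, for the interaction of *Abhd5* in vDG (log2 difference 0.74). With the *Ociad2* range as a covariate, 0 of 24 passed for each term as well.

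**Figure D4:**
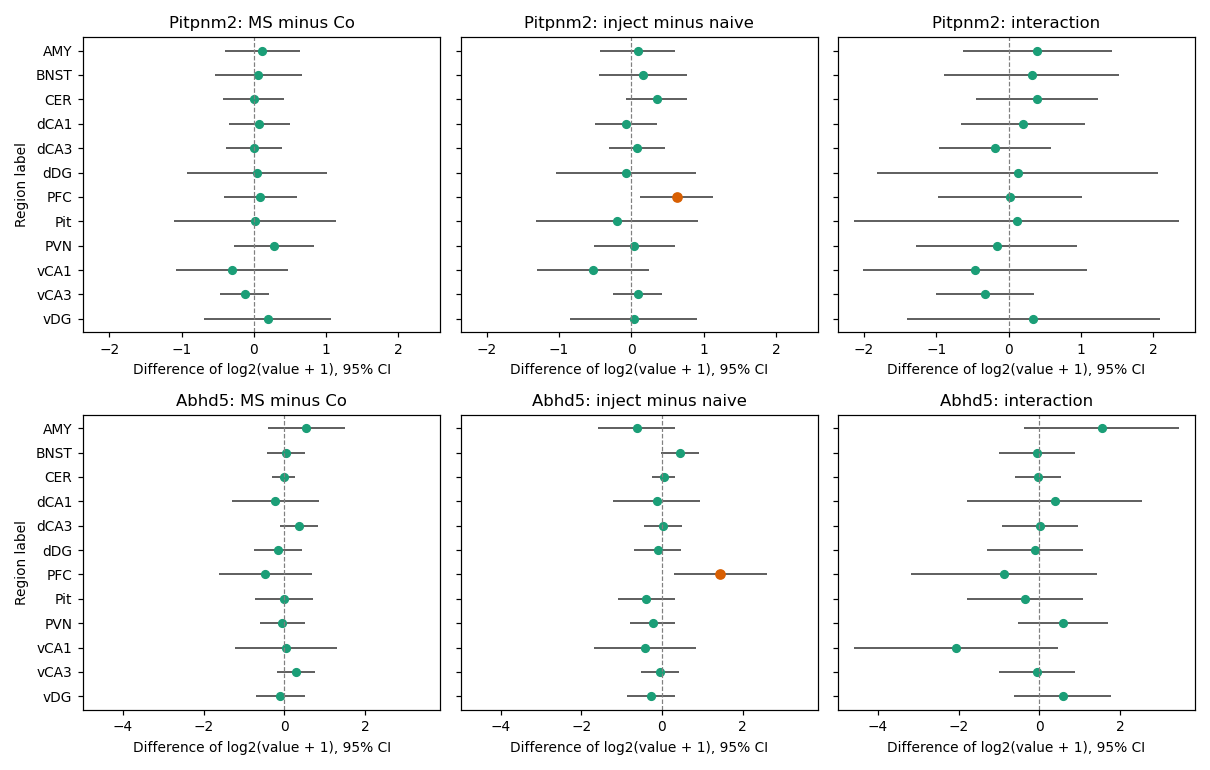
Differences in log2(value + 1) with 95% intervals from limma for *Pitpnm2* (top) and *Abhd5* (bottom) in each region label, for MS minus Co, inject minus naive and their interaction. Orange points have an unadjusted p under 0.05, which is the case only for injection in PFC, and no difference passed an adjusted p of 0.1.

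Because the study asked for co-expression within regions, the 2 genes were correlated across mice within each region label, with the *Anxa2* ranges kept apart, which gave 15 relations. None passed after Benjamini-Hochberg adjustment (0 of 15 by Pearson's r and 0 of 15 by Spearman's rho), and 2 had an unadjusted permutation p under 0.05. In vCA3 (n = 32), r was 0.36 (permutation p = 0.0426, adjusted p = 0.223) and rho 0.45 (permutation p = 0.0107, adjusted p = 0.160), with r of 0.33 after the 2 samples farthest from the *Pitpnm2* median were left out. With rescaled totals, r in vCA3 was 0.03 (permutation p = 0.844) and rho 0.01 (permutation p = 0.951). With the *Ociad2* ranges apart, r was 0.42 under 1200 (n = 16, permutation p = 0.0889) and 0.25 over 1200 (n = 16, permutation p = 0.360). In the 7 vDG samples with *Anxa2* over 1000, r was 0.83 (exact permutation p = 0.0190, adjusted p = 0.223) and rho 0.86 (exact permutation p = 0.0238, adjusted p = 0.179), with r of 0.72 without the 2 farthest samples. With rescaled totals, r was 0.78 (exact permutation p = 0.0254) and rho 0.61 (exact permutation p = 0.167). The r of 0.40 in vCA1 became -0.05 and the r of -0.36 in AMY became 0.06 once the 2 farthest samples were left out, so both rested on those samples. The sign was positive in 8 of 15 relations. After the label group means were removed, 3 of 15 passed by Pearson's r and 2 by Spearman's rho, as described further on.

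**Figure D5:**
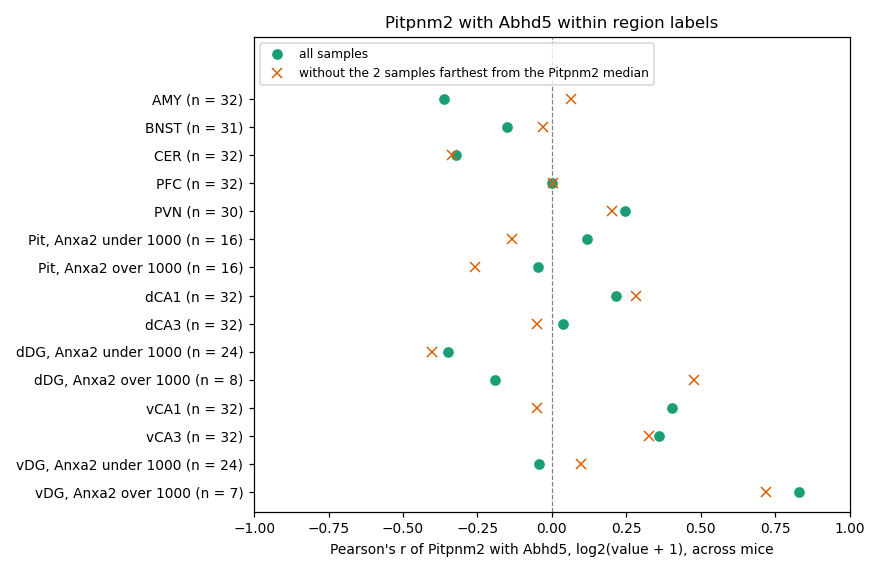
Pearson's r of *Pitpnm2* with *Abhd5* across mice, on log2(value + 1), for each region label and, in Pit, dDG and vDG, for each *Anxa2* range, with all samples (circles) and without the 2 samples farthest from the *Pitpnm2* median (crosses). Signs are mixed, and in AMY and vCA1 the coefficient moves to near 0 without 2 samples.

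Over all 12 region labels, mice that were high in a region were not detectably high in the others. After the mean of each region and label group was removed, 9.88% of the variance of *Pitpnm2* lay between the 32 mice (one-sided permutation p = 0.231) and 6.39% of that of *Abhd5* (one-sided permutation p = 0.853), where permuted mice gave a mean of 8.42% for both genes. When the 6 labels with separate *Anxa2* or *Ociad2* ranges were left out, the share was 25.5% for *Pitpnm2* (one-sided permutation p = 0.0218) and 12.5% for *Abhd5* (one-sided permutation p = 0.901), where permuted mice gave a mean of 16.9% for both genes. Since the permuted mean is higher with fewer labels, shares over 12 and over 6 labels are not to be compared directly. Whether the *Pitpnm2* share passed depended on which labels were included. The removed means left the *Anxa2* division in the *Pitpnm2* residuals. Their SD within label groups was 1.60 in Pit, 1.39 in dDG and 1.22 in vDG, and at most 1.10, in vCA1, elsewhere. These labels therefore weighed most in the share over 12 labels, which could hide a likeness within mice.

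Among the 52 assays with a median of at least 100, the one most like *Pitpnm2* over the 380 samples was *Nedd4l*, a ubiquitin ligase that controls membrane transporters and channels, with an r of 0.81 on log2(value + 1). *Nedd4l* also ranked first within Pit, dDG and vDG (r of 0.93, 95 samples) and within the other 9 labels (r of 0.50, 285 samples). Its median was 2388 (1067 to 3722) with *Anxa2* under 1000 and 778 (400 to 1289) with *Anxa2* over 1000. *Akt1*, a kinase downstream of phosphoinositide 3-kinase, followed with 0.56 and *Peli1*, another ubiquitin ligase, with 0.43, but in the other 9 labels they had 0.20 and 0.06. The lowest coefficients were those of *Tm2d1* (-0.56), *Hist1h2al* (-0.42) and the ribosomal protein gene *Rps25* (-0.35), and in the other 9 labels these were -0.16, -0.08 and -0.02. These points share libraries, depth and size factors, and the coefficients are a description.

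Coefficients with *Abhd5* were weaker. The highest were *Nedd4*, a ubiquitin ligase related to *Nedd4l* (0.39), the cohesin regulator *Pds5a* (0.34) and the mitochondrial ribosomal protein gene *Mrpl54* (0.33). The lowest were the mitochondrial gene *Higd1a* (-0.37), the ubiquitin ligase scaffold *Cul2* (-0.37) and *Ctnnb1*, which encodes beta-catenin (-0.29). In the other 9 labels all 6 kept their sign, with 0.32, 0.28, 0.25, -0.28, -0.29 and -0.24 in the same order. *Pitpnm2* and *Abhd5* themselves had an r of -0.05 over 380 samples, of -0.74 over the 95 samples in which the *Anxa2* division lies, and of 0.10 over the other 285.

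Of 14 lipid and phosphoinositide genes listed for comparison, 7 were among the assays, *Anxa2* included. None passed a label term in any region (0 of 252 tests by limma), and 5 of the 252 had an unadjusted p under 0.05, a level that 2.66% (status), 3.75% (injection) and 2.3% (interaction) of the tests of all assays reached. The largest of these was *Lcn2*, a carrier of small lipophilic molecules, in PFC, with a status difference of 2.56 (standard error 0.78, limma adjusted p = 0.187). *Lcn2* was at 0 in 20 of the 32 PFC samples and had a median of 0 there, so the size of this difference depends on the pseudocount of 1. Across the *Anxa2* division in Pit, dDG and vDG, the median of *Akt1* was 2955 under and 2152 over 1000, in the direction of *Pitpnm2*. *Lcn2* had 4.38 under and 445 over, in the direction of *Abhd5*. Smaller differences were seen for *Mtmr3*, a phosphoinositide 3-phosphatase (346 and 401), *Dpm2*, a subunit of the enzyme that makes dolichol phosphate mannose (491 and 506), and *Slco3a1*, an organic anion transporter (197 and 191). These medians describe the same division and were not tested.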

How the data were processed

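Targeted RNA libraries of 12 region labels from 32 mice were analysed, grouped by the region, status, injection and mouse number in the labels. The genes and lists were chosen with earlier results of these data known. The deposited values are a normalised signal, computed by the authors as the reads of an assay divided by a library size factor from DESeq2. Before that, low-quality reads were discarded (PRINSEQ lite 0.20.4) and the rest aligned to the assay manifest (BWA 0.7.12); the submitters' processing notes name the build mm10. Every value is a whole multiple of a library step (100% of 26220 values within 0.001 of a whole number), from which reads per library were taken. Depth ran from 12898 to 261007 reads.

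Values were analysed as log2(value + 1) with limma 3.58.1 (R 4.3.3), which understates changes at low values. The label terms were fitted per region over all assays with a read in the region, and the region labels in a fit of all samples, with Benjamini-Hochberg adjustment and a threshold of 0.1. Samples with the same mouse number come from the same animal, and their consensus correlation within mouse was -0.0013. Correlations and shares of variance between mice were tested with 100000 permutations or, for fewer than 10 samples, exactly, in scipy 1.17.1 (Python 3.11.15). The steps were tested on simulated data. Named genes were the 2 genes, *Anxa2*, the listed lipid genes (1 of them is not reported here), for each gene the assays with the 3 highest and 3 lowest r, and assays called for a label term; *Ociad2* was named after its values were seen. Alternatives were other pseudocounts (0.1 and 10), a mean of at least 10, rescaled totals, 5 principal components of the residuals, range covariates, the mouse as a block, other thresholds and leaving out libraries or mice. The authors' surrogate variables were not used here.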

Additional observations from a re-analysis of the deposited data

Results flagged for a closer look

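In 13 of 96 groups formed by gene, region label and label group, a single sample stood apart from the others of its group by Dixon's criterion. Its rate of about 1 in 20 groups by chance holds for normally distributed values. Here it was applied to values without a log, and groups in Pit, dDG and vDG held both *Anxa2* ranges. Whether 13 groups are an excess was therefore not tested. The sample was the highest of its group in 12 of the 13. For *Pitpnm2* these were AMY of Co inject mouse 267 (1086, others 203 to 554), AMY of Co naive mouse 239 (1060, others 145 to 543), PVN of MS naive mouse 105 (816, others 190 to 447) and dCA1 of Co naive mouse 229 (790, others 204 to 419). These libraries held 50810, 77452, 69462 and 50448 reads, fewer than the median of their region label in each case.

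For *Abhd5*, the samples in Pit, dDG and vDG were Pit of Co naive mouse 239 (360, others 55.2 to 183), dDG of MS inject mouse 81 (260, others 38.9 to 141), dDG of MS naive mouse 107 (266, others 58.4 to 133) and vDG of Co naive mouse 255 (314, others 73.1 to 176). *Anxa2* was over 1000 in all 4 of them, from 2092 to 3004. In the remaining labels they were AMY of Co inject mouse 243 (320, others 0 to 151), dCA3 of Co naive mouse 255 (157, others 25.5 to 79.8), dCA3 of MS inject mouse 81 (201, others 49.1 to 96.2), vCA3 of Co inject mouse 235 (222, others 42.2 to 113) and, as the single low sample, CER of Co naive mouse 241 (48.9, others 79.6 to 106). *Anxa2* lay between 93.1 and 306 in these 5 samples. The libraries of dDG mice 81 and 107, dCA3 mouse 81, vCA3 mouse 235 and CER mouse 241 held more reads than their label median. Those of Pit mouse 239, AMY mouse 243 and dCA3 mouse 255 held fewer, and that of vDG mouse 255 held the median number. What sets these samples apart was not tested.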

How the results depend on the processing

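Of 250 alternatives over 40 results, 241 were judged the same, 4 weaker, 5 stronger and 0 reversed. Without the fits that left out each mouse in turn, 145 of 154 were the same. Counts of calls were judged the same within a set factor, which compares how many were called, not which. Median levels were judged the same when they moved by less than their SD. Single differences were judged by sign and side of the threshold, and mouse shares by whether p was under 0.05. With 5 principal components as covariates, 1 status test passed, that of *Abhd5* in vCA3 (0.29, limma adjusted p = 0.0683), while 4.6% of all assays were then called, against 0% before. Without the samples labelled Pit, dDG and vDG, which was added after the data had been seen, 10 of 36 pairs of region labels passed for *Abhd5*, against 35.8% over all assays. This count was judged weaker, although the fit of all labels has more pairs (21 of 66 passed). After the label group means were removed, 3 correlations passed by Pearson's r (AMY, vCA3 and vDG with *Anxa2* over 1000) and 2 by Spearman's rho (vCA3 and this vDG range). In AMY the adjusted permutation p of rho was 0.333, and r went from -0.45 to -0.07 without the 2 farthest samples. The 7 vDG samples then had few degrees of freedom left. The mouse share of *Pitpnm2* was 25.5% (one-sided permutation p = 0.0218, permuted mean 16.9%) in 6 region labels. The difference of *Abhd5* between dCA1 and vCA1 lost its call with rescaled totals (0.44, limma adjusted p = 0.163), without libraries under 30000 reads (0.43, adjusted p = 0.189) and without the samples labelled Pit, dDG and vDG (0.62, adjusted p = 0.104), and that between dCA3 and vCA3 gained one with a pseudocount of 10 (-0.41, adjusted p = 0.0885) and without the libraries that had no read (-0.46, adjusted p = 0.0559). The causes were not tested. Leaving out each of the 32 mice in turn gave 0 calls for every label term (lowest and highest 0).

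With the mouse as a replicate block, the same 12 pairs of region labels passed for *Pitpnm2* and the same 21 for *Abhd5*. The backgrounds over all assays were 38% and 51.2%, and the block changed no call of the 2 genes. For the label terms, which compare different mice, no paired analysis was possible because no mouse is in 2 label groups. Of the *Abhd5* pairs, 28 passed without the libraries that had no read, against 51.6% over all assays. This was added after the data had been seen, and 18 of these were among the 21. The reads were recovered from normalised values, and count tests in edgeR or DESeq2 were not run on them. Depth limits *Abhd5* most in vCA1 and PFC, with median reads of 71 and 73.5 a library.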
